A study of Rattus norvegicus with 44 samples.

Results

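Gene expression in CA1 and the dentate gyrus (DG), neighbouring fields of the hippocampus, was compared in young male rats that had received saline only. The comparison rests on 16 of the 44 libraries of the study, 1 from CA1 and 1 from DG of each of 8 rats, chosen by their labels and paired by the animal number in the titles. The animals (Rattus norvegicus) were 5 to 7 months old and were injected intraperitoneally with saline every week for 7 weeks. Both fields came from 1 hippocampus of each rat, removed 48 hours after the seventh injection under isoflurane, and polyadenylated RNA was sequenced. The study was set up around age and lipopolysaccharide (LPS), a bacterial endotoxin. Its other groups, injected on the same weekly schedule, were 8 young rats given LPS at 1 mg per kg and 6 aged rats of 14 to 16 months given saline. They appear only where the difference between the fields is followed in them.

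CA1 is the output field of the hippocampal circuit proper. Its pyramidal neurons receive input from CA3 through the Schaffer collaterals and from the entorhinal cortex, and project to the subiculum and beyond. The principal cells of the DG are granule cells, small and densely packed, which receive the perforant path and send mossy fibres to CA3; granule cells are sparsely active and are among the few neurons generated in adult rodents. The fields also differ in local circuitry: CA1 lies beneath the myelinated fibres of the alveus and beside the lateral ventricle, whereas the DG encloses the hilus with its mossy cells and interneurons.

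The tissue labels were checked against defining genes of each field. Wfs1, an endoplasmic reticulum protein that marks CA1 pyramidal cells, lay between 13112 and 23182 normalized reads over the 8 CA1 libraries (median 18172; reads scaled to a common library size) and between 563 and 9113 over the 8 DG libraries (median 2104). Fibcd1, a chitin-binding membrane protein of CA1 pyramidal cells, lay between 3914 and 10365 in CA1 (median 6649.5) and between 238 and 1533 in DG (median 802). In both genes every CA1 library stood above every DG library, and the DG libraries of rats 2722 and 2410 were the highest of their field. Prox1, the transcription factor that sets granule cell identity, went the other way, between 903 and 1789 in CA1 (median 1225) and between 1803 and 4078 in DG (median 3035). The fields did not overlap in Prox1 either, and by these markers all 16 libraries matched their labels. Over all tested genes the fields were less apart. On the second principal component (17.6% of the variance) CA1 lay between -23.2 and 26.9 and DG between -56.0 and 9.56, with overlap. Prox1 was not near 0 in CA1, where its mean was 2.33-fold below that of DG, and the source of these reads was not tested. The log2 differences, CA1 minus DG within rats, were 3.14 (SE 0.56, limma adjusted p = 0.00674) for Wfs1, 3.39 (SE 0.50, limma adjusted p = 0.00250) for Fibcd1 and -1.22 (SE 0.12, limma adjusted p = 4.11e-05) for Prox1, each with the same sign in 8 of 8 rats.

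**Figure D1:**
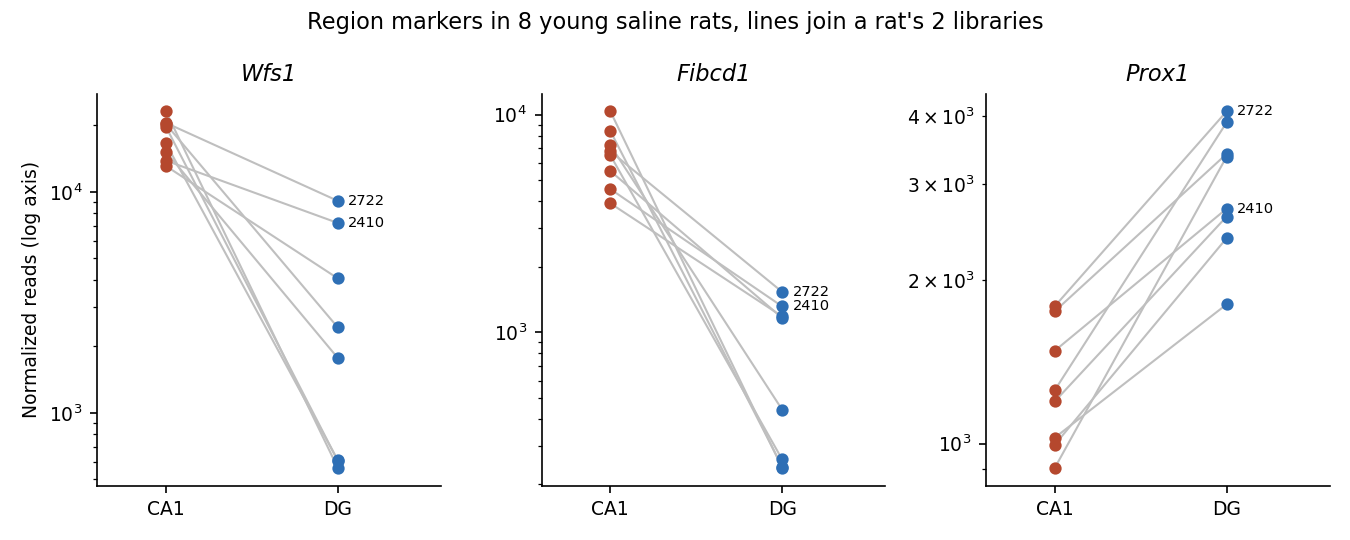
Normalized reads on a log axis of the CA1 markers Wfs1 and Fibcd1 and the DG marker Prox1 in 8 young saline rats; each point is a library and each line joins both libraries of a rat. The 2 fields do not overlap in any of the panels, and the DG libraries of rats 2722 and 2410 carry the most Wfs1.

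The 16 libraries held between 12130182 and 22934253 reads assigned to genes, as recovered from the deposited values, and markers of other tissue varied among them. Over the 10 tested CA1 pyramidal markers, summed levels lay between 33329 and 53877 normalized reads in CA1 and between 3240.3 and 16757 in DG, where rats 2722 and 2410 were highest. By the mean log level of these markers, rat 2526 followed as the third DG library, and the other 5 lay lower. Over the 14 granule markers they lay between 9147 and 13359 in CA1 and between 17013 and 25105 in DG. The DG libraries of rats 2526 and 2572 were the highest of their field in meningeal, mural and blood markers, and the CA1 library of rat 2526 was the highest of its field in choroid plexus and meningeal markers. Summed meningeal markers lay between 536 and 1167 in CA1 and between 255 and 1953 in DG, and summed blood markers between 1266 and 11531 and between 1136 and 17802. The CA1 library of rat 2572 was the highest of all 16 in transcripts of the mitochondrial genome. Calls of named genes that end without rats 2526 and 2572, or without 2410 and 2722, and list counts that move by over 1.5 times, are given beside each list. The part that the dissection has in any difference was not tested, and in bulk tissue fewer cells of a type cannot be told apart from less RNA per cell.

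Of 14657 genes tested, 1793 (12.2%) passed an adjusted p of 0.05 (limma with the rat as block). They are referred to as called, and 3793 (25.9%) had an unadjusted p below 0.05. Of the called genes 916 (6.25% of those tested) were higher in CA1 and 877 (5.98%) in DG. A called gene named below had the same sign in 8 of 8 rats unless another number of rats is given. Differences toward CA1 were the larger. Among the called genes the median log2 difference was 0.71 for those higher in CA1 and -0.56 for those higher in DG, and 258 (1.76% of tested genes) against 142 (0.969%) reached 1 in size. In 424 genes (2.89%) no library of a field lay within the range of the other field, 203 of them (1.39%) higher in CA1 and 221 (1.51%) higher in DG. The balance between directions depended on the scaling: with the values as deposited, where the fields had been normalized separately, 737 genes were called higher in CA1 and 1223 in DG, so that 37.6% of calls pointed to CA1 in place of 51.1%. Without rats 2410 and 2722 the calls were 1065 and 865. Without 2526 and 2572 they were 592 and 680, without all 4, which takes out the 3 DG libraries highest in CA1 markers, 1138 and 822, and without 2731 they were 562 and 558.

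**Figure D2:**
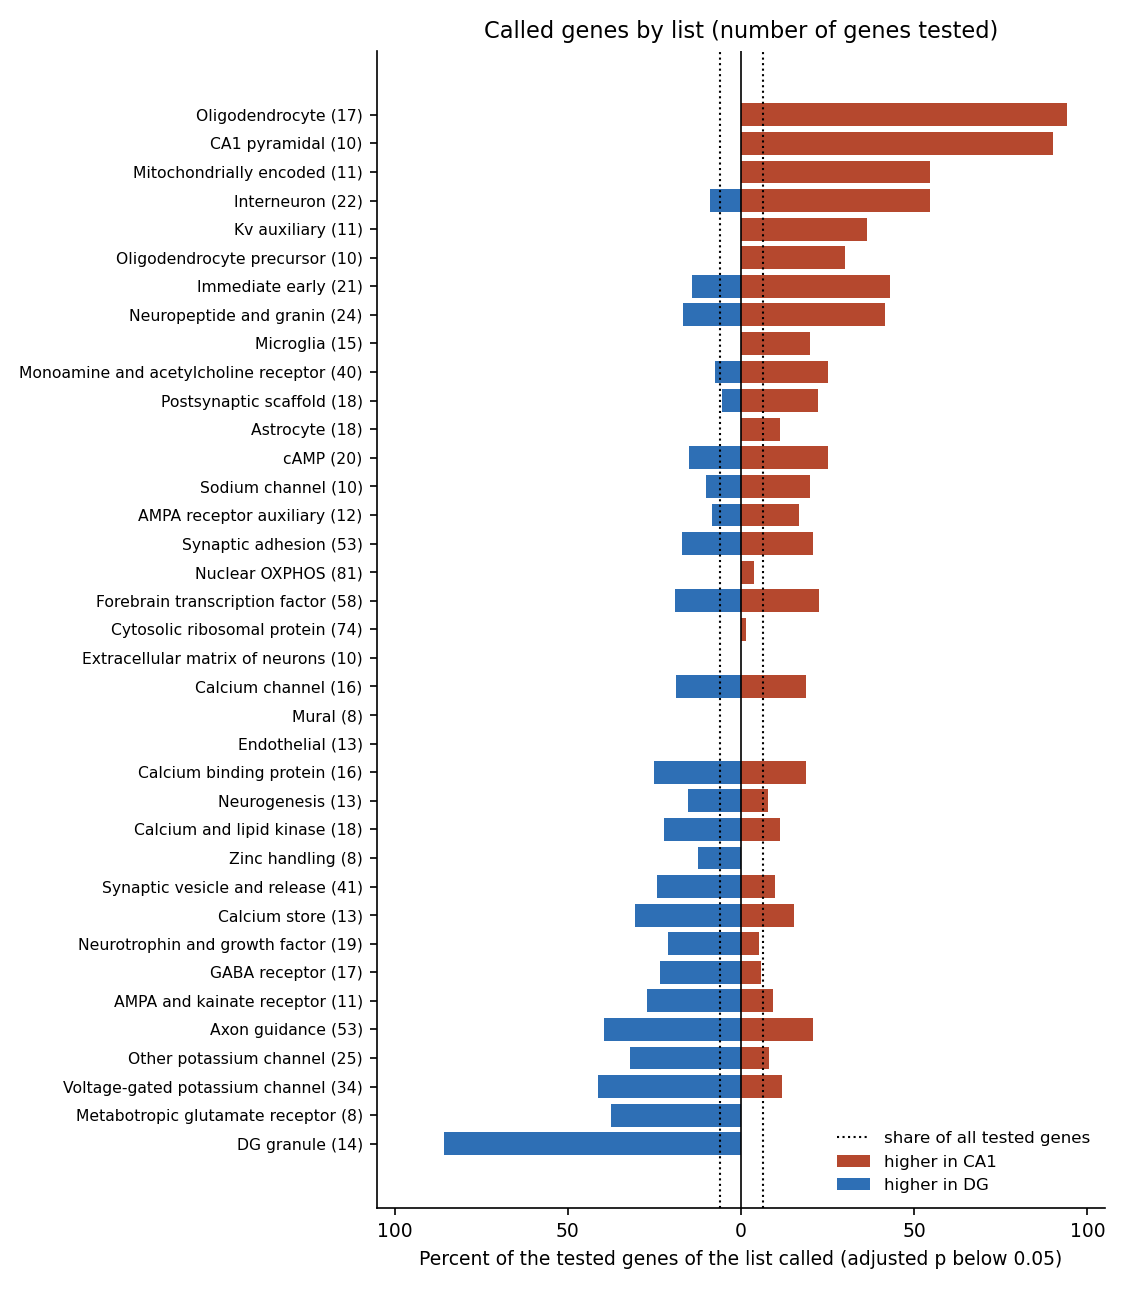
Share of the tested genes of each list with at least 8 tested genes that was called higher in CA1 (to the right) or higher in DG (to the left), with the number tested in brackets; dotted lines mark the shares over all tested genes, 6.25% and 5.98%. Lists of oligodendrocyte, CA1 pyramidal, interneuron and mitochondrially encoded genes extend furthest toward CA1, and those of granule cells, voltage-gated potassium channels, axon guidance and metabotropic glutamate receptors toward DG.

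Among genes called with the same sign in 8 of 8 rats and a median of at least 50 normalized reads in the higher field, the 10 largest differences toward CA1 held signalling molecules and receptors beside the pyramidal markers. Wnt3a, a secreted ligand of the Wnt pathway, lay between 62.2 and 111 normalized reads in CA1 (median 71.5) and between 0 and 33.9 in DG (median 5.14). Met, the receptor of hepatocyte growth factor, lay between 218 and 521 in CA1 (median 436) and between 2.44 and 76.8 in DG (median 25.3). Nov, a secreted matricellular protein, lay between 3347 and 5160.2 (median 4123) against 147 to 1692 (median 403). None of these 3 genes overlapped between the fields. Their log2 differences were 4.04 (SE 0.55, limma adjusted p = 0.000377) for Wnt3a, 3.98 (SE 0.47, limma adjusted p = 0.000262) for Met and 3.20 (SE 0.36, limma adjusted p = 0.000321) for Nov, all positive in 8 of 8 rats. Tacr3, the neurokinin B receptor, had a log2 difference of 3.36 (limma adjusted p = 0.000551), Crabp1, a cytosolic carrier of retinoic acid, 3.15 (limma adjusted p = 0.000517), and Lyzl4, a lysozyme-like protein, 3.39 (limma adjusted p = 0.0243). In Tacr3 the highest DG library (63.4) lay above the lowest CA1 library (51.5), while each rat had more in CA1. The other 4 of the 10 were Fibcd1, Wfs1, Pou3f1 and Drd5. Leaving out 1 rat ended the call of Lyzl4 (without rat 2523, 2571 or 2731). The call of Lyzl4 ended without rats 2526 and 2572.

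Of the 10 CA1 pyramidal markers that could be tested, 9 were called higher in CA1 and none in DG, with a median log2 difference of 2.96 against 0.0043 over all tested genes. Pou3f1, a POU-domain transcription factor, lay between 1212 and 1794 normalized reads in CA1 and between 42.8 and 752 in DG, a log2 difference of 3.21 (SE 0.59, limma adjusted p = 0.00766). The orphan receptor Gpr161 had a difference of 2.95 (limma adjusted p = 0.00156), and Mpped1, a phosphodiesterase-like protein, one of 2.68 (limma adjusted p = 0.00114). Neurod6, a transcription factor of glutamatergic neurons, was the marker that did not pass, at 0.60 (limma adjusted p = 0.0831, 6 of 8 rats). The median over the markers was 3.57 without rats 2410 and 2722, with 9 called.

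Markers of granule cells showed smaller differences. Of 14 tested, 12 were called higher in DG and none in CA1, with a median log2 difference of -0.92. C1ql2, a secreted complement-like protein of mossy fibre synapses, lay between 1032 and 1949 normalized reads in CA1 (median 1518) and between 3184 and 4392 in DG (median 3813). Dsp, the desmosomal protein desmoplakin, lay between 305 and 533 (median 383) against 647 to 1107 (median 838). Both genes were free of overlap and lower in CA1 in 8 of 8 rats, with log2 differences of -1.34 (SE 0.11, limma adjusted p = 1.92e-05) and -1.11 (SE 0.10, limma adjusted p = 3.54e-05). Plk5, a polo-like kinase of postmitotic neurons, had a difference of -1.49 (limma adjusted p = 0.000111), the axon guidance molecule Sema5a -0.99 (limma adjusted p = 0.000285), the cation channel Trpc6 -0.92 (limma adjusted p = 0.00145), and the synaptic adhesion protein Lrrtm4 -0.66 (limma adjusted p = 0.000519). C1ql3, a relative of C1ql2, did not pass (-0.43, limma adjusted p = 0.0907, 6 of 8 rats), nor did the matrix protein Npnt (-0.81, limma adjusted p = 0.0998, 7 of 8 rats). The sum of these markers in the median CA1 library was 10264, against 21151 in DG, whereas the CA1 markers stood at 7573 in the median DG library against 43075 in CA1.

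By the same rule, the 10 largest differences toward DG were in genes of varied function. Svep1, a large extracellular matrix protein, lay between 158 and 912 normalized reads in CA1 (median 523) and between 962 and 2349 in DG (median 1682). Mei1, a gene known from meiotic recombination, lay between 168 and 517 (median 378) against 688 to 1419.8 (median 1013). Neither overlapped between the fields, and the differences were -1.71 (SE 0.15, limma adjusted p = 2.61e-05) and -1.61 (SE 0.17, limma adjusted p = 8.03e-05). Otog, encoding otogelin of the inner ear's acellular membranes, had the largest of these, -2.10 (SE 0.36, limma adjusted p = 0.00183), at low levels of up to 84.7 normalized reads. Npy2r, a receptor of neuropeptide Y, had a difference of -1.51 (limma adjusted p = 0.00171), Fermt1, an activator of integrins, -1.50 (limma adjusted p = 0.000807), the serine protease gene Htra4 -1.57 (limma adjusted p = 0.00172), and Ankdd1a, an ankyrin repeat protein, -1.47 (limma adjusted p = 0.000803). In these 4 genes the ranges of the fields overlapped, while each rat had more in DG. Nhlh1, a helix-loop-helix transcription factor of young neurons, lay between 108 and 282 in CA1 and between 434 and 913 in DG without overlap and had a difference of -1.44 (limma adjusted p = 0.000116). The other 2 of the 10 were Plk5 and Kcnh8.

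Among 58 transcription factors of the forebrain, 13 were called higher in CA1 and 11 in DG. On the CA1 side, Meis2, a homeobox partner of Pbx proteins, lay between 462 and 557 normalized reads in CA1 and between 74.0 and 329 in DG, and Ldb2, an adaptor of LIM-domain factors, between 690.3 and 1056 and between 134 and 532. Neither overlapped, and their log2 differences were 1.77 (SE 0.21, limma adjusted p = 0.000140) and 1.81 (SE 0.22, limma adjusted p = 0.000173). Fezf2 and Etv1, factors of deep-layer projection neurons, followed with 1.18 (limma adjusted p = 0.00305, 7 of 8 rats) and 1.04 (limma adjusted p = 0.00370, 7 of 8 rats), and Foxp1 with 0.97 (limma adjusted p = 0.00145). On the DG side, Zfpm2, a cofactor of GATA proteins, lay between 311 and 439 in CA1 and between 610.0 and 979.7 in DG without overlap, a difference of -1.12 (SE 0.12, limma adjusted p = 7.42e-05). Lhx9, a LIM homeobox gene, had a difference of -1.44 (limma adjusted p = 0.00466, 7 of 8 rats), the ciliogenic factor Rfx3 -0.93 (limma adjusted p = 0.00351), and Neurod1, which drives granule cell differentiation, -0.69 (limma adjusted p = 0.00106). Nfib and Mef2c were also called higher in DG, at -0.59 (limma adjusted p = 0.00838, 7 of 8 rats) and -0.41 (limma adjusted p = 0.00745). The call of Nfib ended without rats 2526 and 2572.

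Immediate early genes, which neurons transcribe within minutes of synaptic activity, separated into opposite directions. Of 21 tested, 9 were called higher in CA1 and 3 in DG. Nr4a1, an orphan nuclear receptor, lay between 717 and 1356 normalized reads in CA1 (median 1113) and between 201 and 599 in DG (median 317). Egr1, a zinc finger factor, lay between 1424 and 2002 (median 1720.4) against 734 to 1185 (median 916). In both, the lowest CA1 library stood above the highest DG library, and the log2 differences were 1.68 (SE 0.24, limma adjusted p = 0.000528) and 0.90 (SE 0.10, limma adjusted p = 0.000111). Arc, which acts at the synapse on the endocytosis of AMPA receptors, lay between 1637 and 3295 in CA1 and between 743 and 2063 in DG; these ranges overlapped, while 8 of 8 rats had more in CA1 (1.17, SE 0.18, limma adjusted p = 0.000831). Egr2 had the difference 1.62 (limma adjusted p = 0.000808), Nr4a2 0.90 (limma adjusted p = 0.00485, 7 of 8 rats), the activity-dependent factor Npas4 0.80 (limma adjusted p = 0.0263, 7 of 8 rats), and Homer1, counted over all its isoforms, 0.62 (limma adjusted p = 0.00969, 7 of 8 rats). Fits with 1 rat less lost the call of Npas4 (without rat 2523, 2526, 2722, 2728 or 2731). The call of Npas4 ended without rats 2526 and 2572. The call of Npas4 ended without rats 2410 and 2722.

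Jun went the other way. This subunit of the AP-1 factor lay between 1416 and 1999 normalized reads in CA1 (median 1623) and between 2726 and 3219.9 in DG (median 2957). Btg2, an antiproliferative gene, lay between 239 and 349 (median 273) against 402 to 527 (median 473). Neither gene overlapped between the fields, and both were lower in CA1 in 8 of 8 rats, with log2 differences of -0.83 (SE 0.09, limma adjusted p = 5.94e-05) and -0.72 (SE 0.09, limma adjusted p = 0.000189). Egr3, a relative of Egr1, was higher in DG as well (-0.41, limma adjusted p = 0.0178, 7 of 8 rats). The partner of Jun, Fos, was at 49.6 to 155 (median 116) in CA1 and 59.9 to 178 (median 71.8) in DG, and its difference of 0.26 (limma adjusted p = 0.453, 5 of 8 rats) did not pass. Nptx2, a secreted pentraxin induced by activity, did not pass either (-0.15, limma adjusted p = 0.286, 7 of 8 rats). Leaving out 1 rat ended the call of Egr3 (without rat 2722 or 2731). The call of Egr3 ended without rats 2410 and 2722.

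**Figure D3:**
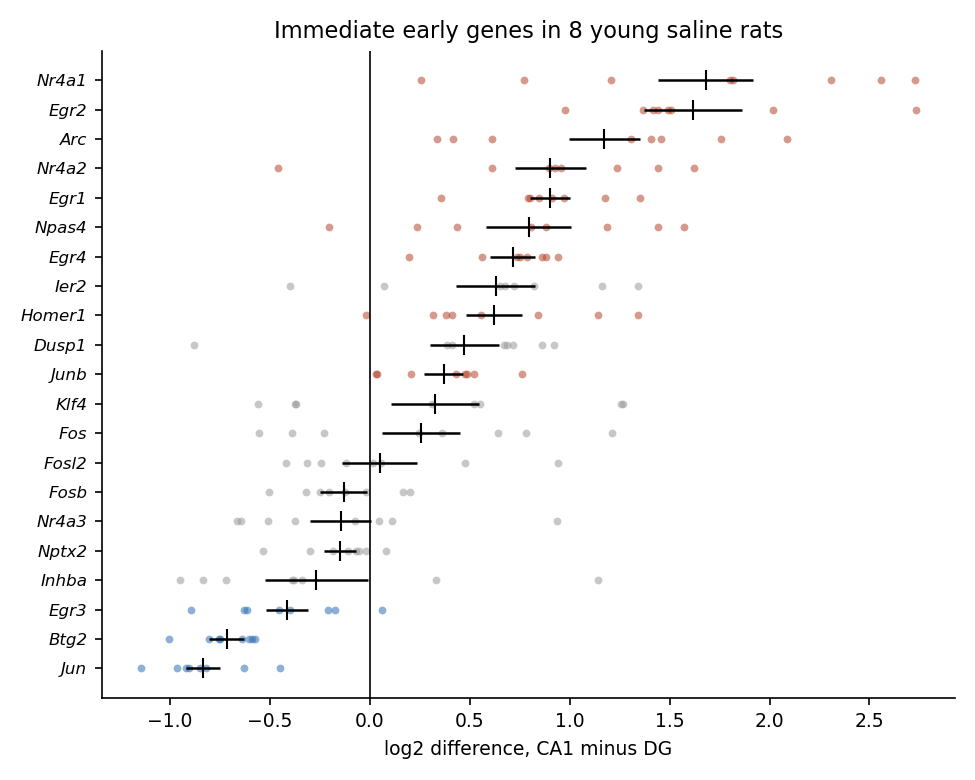
Log2 differences, CA1 minus DG, of immediate early genes; each point is a rat, the black mark is the mean with its SE, and colour shows the genes called (red, higher in CA1; blue, higher in DG; grey, not called). Nr4a1 and Egr2 lie furthest toward CA1 and Jun and Btg2 furthest toward DG.

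The promoters of 3 immediate early genes, of both directions, are shown because such genes are known to be transcribed through cAMP response elements, bound by CREB, and serum response elements, which hold a CArG box. RefSeq sequences (GRCr8, 300 bases each, 250 before and 50 from the transcription start, 5′ to 3′) are printed for Nr4a1 at chr7:134259888-134260187 on the plus strand, Egr2 at chr20:21054392-21054691 on the minus strand and Btg2 at chr13:48087641-48087940 on the minus strand. Capitals mark TGACG or its reverse complement CGTCA, the core of the cAMP response element, and in Egr2 also the CArG box.
Nr4a1: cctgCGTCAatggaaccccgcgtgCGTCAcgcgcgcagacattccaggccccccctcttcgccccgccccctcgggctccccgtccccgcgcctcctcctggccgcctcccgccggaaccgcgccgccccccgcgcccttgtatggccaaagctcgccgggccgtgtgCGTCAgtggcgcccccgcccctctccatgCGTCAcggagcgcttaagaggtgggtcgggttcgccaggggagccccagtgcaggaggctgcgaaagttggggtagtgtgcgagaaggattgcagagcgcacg
Egr2: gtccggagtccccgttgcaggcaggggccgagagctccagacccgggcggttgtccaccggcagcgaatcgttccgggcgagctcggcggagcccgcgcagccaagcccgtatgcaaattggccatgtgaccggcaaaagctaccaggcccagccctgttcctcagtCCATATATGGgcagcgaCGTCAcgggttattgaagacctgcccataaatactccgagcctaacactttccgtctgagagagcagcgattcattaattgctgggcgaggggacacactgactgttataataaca
Btg2: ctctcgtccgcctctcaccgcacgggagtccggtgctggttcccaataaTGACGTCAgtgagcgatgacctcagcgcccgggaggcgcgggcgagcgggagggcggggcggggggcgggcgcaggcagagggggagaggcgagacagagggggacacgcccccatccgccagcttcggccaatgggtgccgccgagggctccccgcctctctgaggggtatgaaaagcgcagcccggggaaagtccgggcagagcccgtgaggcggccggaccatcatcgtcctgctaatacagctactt
Nr4a1, higher in CA1, held 4 copies, the nearest starting 53 bases before the transcription start. Egr2, also higher in CA1, held a copy 66 bases and the CArG box 83 bases before the start, and Btg2, higher in DG, held the full palindrome TGACGTCA 201 bases before it. All 3 promoters shown were picked among those that hold the core, so its presence in both directions follows from that choice. Jun and Egr3, also called higher in DG, had no promoter sequence here. On either strand the core was found in 10 of the 16 immediate early genes with a promoter sequence. It was in 31.2% of the 10285 tested genes with one, in 26.1% of 663 called higher in CA1 and in 22.9% of 643 called higher in DG. Of all 33469 promoters 21.2% held it. The full palindrome, which contains the core, was in 3 of the 16, in 3.07% of those of tested genes and in 1.83% of all promoters. By direction it was in 2.87% of those called higher in CA1 and 2.64% in DG. The CArG box was in 2 of the 16, in 1.19% of those of tested genes and in 1.64% of all. By direction its shares were 2.26% in CA1 and 1.24% in DG. These matches describe letters and not binding.

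Glutamate receptor genes differed by class. Gria1, a principal subunit of AMPA receptors, lay between 7825 and 9521 normalized reads in CA1 and between 7964 and 10349.6 in DG, a log2 difference of -0.02 (SE 0.08, limma adjusted p = 0.919, 4 of 8 rats), which did not pass. The obligatory NMDA receptor subunit Grin1 did not pass either (-0.07, SE 0.10, limma adjusted p = 0.700, 5 of 8 rats). Of 6 NMDA receptor genes, 1 was called, the modulatory subunit Grin3a, at 1.13 (SE 0.23, limma adjusted p = 0.00572, 7 of 8 rats). Of 11 AMPA, kainate and delta receptor genes, 3 were called higher in DG and 1 in CA1, and all 4 encode kainate receptor subunits. Grik4, which is abundant at mossy fibre targets in CA3, lay between 556 and 1344 in CA1 and between 867 and 2356 in DG (-1.11, SE 0.22, limma adjusted p = 0.00487, 7 of 8 rats), and Grik1 differed the other way (0.99, SE 0.16, limma adjusted p = 0.00128). The auxiliary subunits of kainate receptors were opposed as well, Neto1 at -0.90 (limma adjusted p = 0.00990, 7 of 8 rats) and Neto2 at 1.00 (limma adjusted p = 0.00214, 7 of 8 rats). Ranges overlapped in these 4 genes. In fits that left out 1 rat, the AMPA and kainate count higher in CA1 was 2 without rat 2410 or 2523, and the AMPA and kainate count higher in DG was 1 without rat 2731, and the NMDA count higher in CA1 was 2 without rat 2410. The calls of Grik4 and Neto1 ended without rats 2526 and 2572. The AMPA and kainate count higher in DG was 1 without rats 2526 and 2572.

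Metabotropic glutamate receptors had 3 of 8 genes called, all higher in DG. Grm2, a presynaptic autoreceptor of mossy fibres, lay between 623 and 1213 normalized reads in CA1 (median 822) and between 1573 and 2470.0 in DG (median 1832). Grm7, a presynaptic receptor of low affinity, had a difference of -0.64 (SE 0.13, limma adjusted p = 0.00543). In both genes the fields were free of overlap, and the difference of Grm2 was -1.26 (SE 0.12, limma adjusted p = 4.11e-05), with 8 of 8 rats higher in DG. Grm5, a postsynaptic receptor coupled to phospholipase C, had a difference of -0.01 (limma adjusted p = 0.975, 5 of 8 rats) that did not pass.

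For inhibition, 4 of 17 GABA receptor genes were called higher in DG and 1 in CA1. Gabrd, the delta subunit of extrasynaptic receptors that carry tonic inhibition, lay between 554 and 859 normalized reads in CA1 (median 640.3) and between 977 and 1424 in DG (median 1106), without overlap and lower in CA1 in 8 of 8 rats (-0.77, SE 0.10, limma adjusted p = 0.000285). Its frequent partner Gabra4 was higher in DG by a smaller amount (-0.40, limma adjusted p = 0.0276), as was Gabra2 (-0.44, limma adjusted p = 0.0380, 7 of 8 rats). Gabra5, the alpha subunit known for extrasynaptic receptors of pyramidal cells, lay between 1787 and 2851 in CA1 and between 1427 and 2928 in DG and did not pass (-0.04, limma adjusted p = 0.912, 5 of 8 rats). Subunits at low levels were called in opposite directions, Gabrr2 at 1.98 (limma adjusted p = 0.000807) and Gabrr3 at -1.62 (limma adjusted p = 0.0456), the latter with CA1 libraries of at most 8.57 normalized reads. Fits with 1 rat less lost the call of Gabra4 (without rat 2571, 2572, 2728 or 2731), of Gabra2 (without rat 2523, 2571, 2572, 2722, 2728 or 2731), of Gabrr3 (without rat 2410, 2523, 2571, 2572, 2722, 2728 or 2731). In the list as a whole, the GABA receptor count higher in CA1 was 2 without rat 2523, and the GABA receptor count higher in DG was 1 without rat 2571, 2572, 2728 or 2731 and 2 without rat 2722. Without rats 2526 and 2572 together the DG count was 1. The calls of Gabra4, Gabra2 and Gabrr3 ended without rats 2526 and 2572. The call of Gabrr3 ended without rats 2410 and 2722.

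Receptors of monoamines and acetylcholine held some of the widest differences of the data. Of 40 tested, 10 were called higher in CA1 and 3 in DG. The dopamine receptor Drd5 lay between 48.5 and 115 normalized reads in CA1 (median 72.9) and between 0 and 48.0 in DG (median 11.1). The serotonin receptor Htr1b lay between 293 and 438 (median 341) against 9.69 to 155 (median 42.5), and Htr5b between 523 and 806 (median 623) against 26.9 to 269.8 (median 106). In all 3 genes the fields were apart, with differences of 3.22 (SE 0.57, limma adjusted p = 0.00219), 2.93 (SE 0.41, limma adjusted p = 0.000671) and 2.78 (SE 0.35, limma adjusted p = 0.000394) in 8 of 8 rats. Htr2c, coupled to phospholipase C, followed with 2.26 (limma adjusted p = 0.000401), the muscarinic receptors Chrm5 and Chrm4 with 1.67 (limma adjusted p = 0.000418) and 0.81 (limma adjusted p = 0.000173), and the histamine receptor Hrh3 with 1.27 (limma adjusted p = 0.000140).

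Within the same families, other members were higher in DG. Htr1a, the main inhibitory serotonin receptor of principal cells, lay between 288 and 424 normalized reads in CA1 (median 347) and between 496 and 729 in DG (median 617), without overlap and higher in DG in 8 of 8 rats (-0.80, SE 0.11, limma adjusted p = 0.000346). Drd1 stood at -0.64 (limma adjusted p = 0.0106, 7 of 8 rats), opposite in sign to its close relative Drd5, and the nicotinic subunit Chrna7 at -0.65 (limma adjusted p = 0.0107, 7 of 8 rats). Chrm1, the main muscarinic receptor of hippocampal principal cells, did not pass (-0.17, limma adjusted p = 0.318, 6 of 8 rats). The call of Drd1 ended without rats 2410 and 2722.

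**Figure D4:**
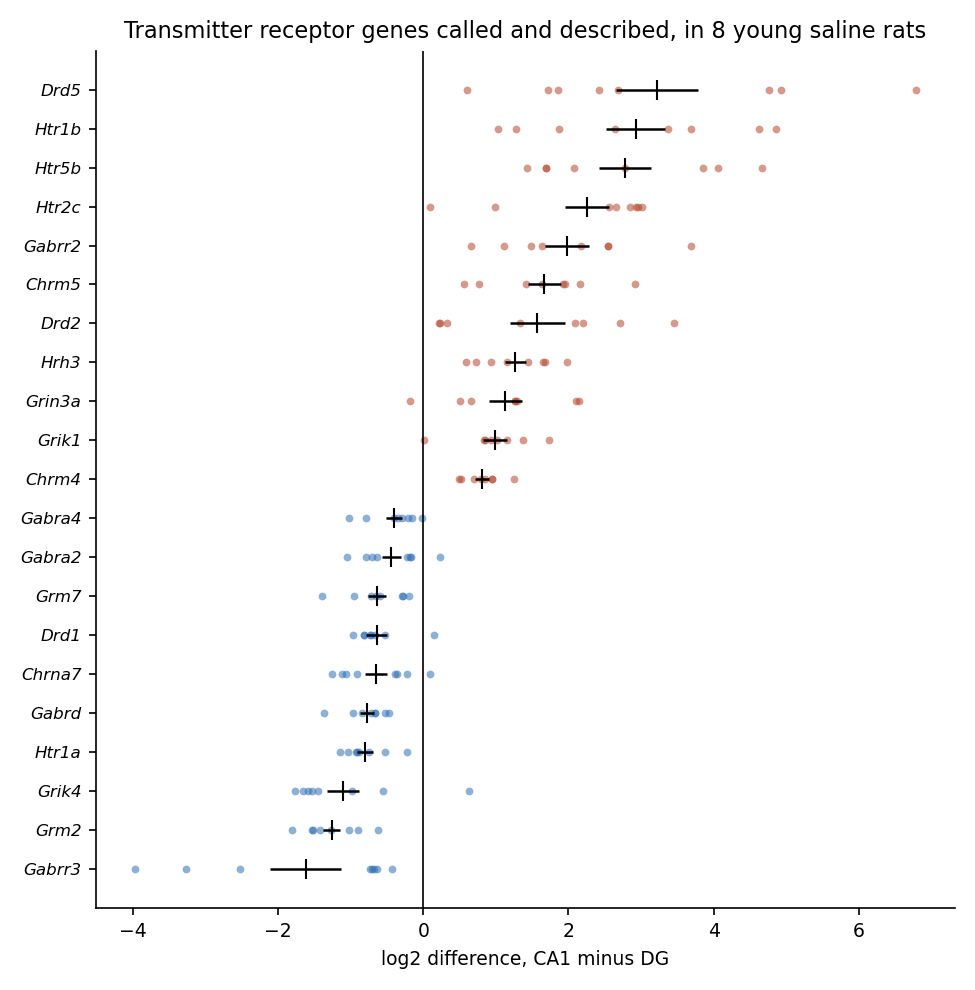
Log2 differences, CA1 minus DG, of the transmitter receptor genes called and described in the text; each point is a rat and the black mark is the mean with its SE (red, higher in CA1; blue, higher in DG). Drd5, Htr1b and Htr5b lie furthest toward CA1, and Grm2, Htr1a and Gabrd lie toward DG in every rat.

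Voltage-gated potassium channel genes leaned toward DG. Of 34 tested, 14 were called higher in DG and 4 in CA1, with a median log2 difference of -0.30. Kcng1, a modulatory subunit, lay between 613 and 1137 normalized reads in CA1 (median 869) and between 1525 and 2225 in DG (median 1847). Kcnc4, of the family of fast delayed rectifiers, lay between 948 and 1530.5 (median 1118) against 1806 to 2494 (median 2151). Neither overlapped, with differences of -1.06 (SE 0.10, limma adjusted p = 3.66e-05) and -0.87 (SE 0.10, limma adjusted p = 0.000111). Kcna1, a low-threshold channel of axons, was at -0.72 (limma adjusted p = 0.000513), Kcnd3, which carries A-type current, at -0.72 (limma adjusted p = 0.000297), and Kcnh8 at -1.56 (limma adjusted p = 0.00596). Kcnh7 was the main exception: this channel of the ERG family lay between 196 and 351 in CA1 and between 62.7 and 183 in DG without overlap, higher in CA1, with a log2 difference of 1.41 (SE 0.18, limma adjusted p = 0.000277), with its relative Kcnh2 at 0.79 (limma adjusted p = 0.00268, 7 of 8 rats).

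Other potassium channels also leaned toward DG, with 8 of 25 called higher in DG and 2 in CA1. Kcnk1, a leak channel, lay between 614 and 751 normalized reads in CA1 and between 992 and 1396 in DG without overlap (-0.80, SE 0.09, limma adjusted p = 8.30e-05), and the inward rectifier Kcnj2 and the leak channel Kcnk10 were also apart, at -1.07 (limma adjusted p = 0.00127) and -1.07 (limma adjusted p = 0.000814). The calcium-activated channel Kcnn2 was higher in CA1 (0.64, limma adjusted p = 0.00147). Pex5l, encoding TRIP8b, a trafficking partner of the hyperpolarization-activated channels, lay between 2142 and 3045 in CA1 and between 499 and 2096 in DG (1.56, SE 0.21, limma adjusted p = 0.000355). It was higher in CA1 in 8 of 8 rats, without overlap. For single rats, the other potassium channel count higher in CA1 was 1 without rat 2523, 2526, 2571, 2572, 2728 or 2731. The other potassium channel count higher in CA1 was 1 without rats 2526 and 2572.

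Calcium entry and release were divided by gene. Of 16 voltage-gated calcium channel genes, 3 were called higher in DG and 3 in CA1. The L-type pore subunit Cacna1c lay between 705 and 1263 normalized reads in CA1 and between 1374 and 2448 in DG without overlap (-0.90, SE 0.12, limma adjusted p = 0.000321), and its relative Cacna1d was at -0.67 (limma adjusted p = 0.00226). Of 13 genes of the intracellular stores, 4 were called higher in DG and 2 in CA1. Itpr1, the main receptor of inositol trisphosphate in neurons, lay between 11071 and 16812 in CA1 (median 14999) and between 6339 and 10073 in DG (median 7514). Orai2, a pore of store-operated entry, lay between 1077 and 1845 (median 1668) against 2457 to 3653 (median 3022). Both were without overlap and in opposite directions, at 0.90 (SE 0.10, limma adjusted p = 8.46e-05) and -0.94 (SE 0.08, limma adjusted p = 1.92e-05). Ryr2, the main ryanodine receptor of principal cells, was higher in DG (-0.92, limma adjusted p = 0.00106, 7 of 8 rats). Fits without 1 rat moved these counts, since the calcium channel count higher in CA1 was 1 without rat 2571, 2572, 2728 or 2731, and the calcium channel count higher in DG was 5 without rat 2410, and the calcium store count higher in CA1 was 1 without rat 2410, 2571, 2572, 2722, 2728 or 2731. The calcium channel count higher in CA1 was 0 and the calcium store count in CA1 was 1 without rats 2526 and 2572.

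Enzymes downstream of calcium and cAMP differed in both directions within families. Adcy1, the calmodulin-stimulated adenylyl cyclase, lay between 5604 and 9585 normalized reads in CA1 and between 9222 and 19796 in DG, lower in CA1 in 8 of 8 rats with overlap of the ranges (-1.01, SE 0.11, limma adjusted p = 0.000115). Among phosphodiesterases stimulated by calmodulin, Pde1a was higher in CA1 (0.76, SE 0.11, limma adjusted p = 0.000401) and Pde1b higher in DG (-0.79, SE 0.09, limma adjusted p = 0.000143), and neither overlapped. In the protein kinase C family, Prkcb lay between 2747 and 4012 in CA1 and between 1603 and 2357 in DG (0.89, SE 0.10, limma adjusted p = 0.000111), whereas Prkce lay between 3368 and 4487 against 4679.8 to 7598 (-0.62, SE 0.09, limma adjusted p = 0.000834). Each of these kinases was apart between the fields. Camkk1, which phosphorylates calmodulin-dependent kinases, was higher in DG (-0.76, limma adjusted p = 0.000756, 7 of 8 rats). In the lists these genes belong to, 5 of 20 cAMP genes were called higher in CA1 and 3 in DG, and of 18 kinases 2 and 4. In fits that left out 1 rat, the cAMP count higher in CA1 was 2 without rat 2571, 2722, 2728 or 2731 and 3 without rat 2523 or 2572, and the kinase count higher in CA1 was 1 without rat 2572, 2722 or 2731, and the kinase count higher in DG was 2 without rat 2731. The cAMP count higher in CA1 was 2, the kinase count in CA1 was 1 and the kinase count in DG was 2 without rats 2526 and 2572.

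At the synapse, genes of vesicle release leaned toward DG, with 10 of 41 called there and 4 in CA1. Unc13c, a priming factor, lay between 233 and 465 normalized reads in CA1 and between 489 and 999 in DG (-1.16, SE 0.17, limma adjusted p = 0.000702), and Doc2b, a calcium sensor of spontaneous release, between 499 and 875 and between 193 and 442 (1.33, SE 0.12, limma adjusted p = 3.54e-05). Neither overlapped, and they were opposite in sign in 8 of 8 rats. The complexin Cplx2 was at -0.75 (limma adjusted p = 0.000178) and the sensor Syt7, known for facilitation at mossy fibres, at -0.54 (limma adjusted p = 0.00142). Of 18 postsynaptic scaffolds, 4 were called higher in CA1 and 1 in DG. Homer2, which links metabotropic receptors to inositol trisphosphate receptors, lay between 308 and 487 in CA1 and between 85.6 and 230.5 in DG without overlap (1.43, SE 0.17, limma adjusted p = 0.000171). The count of release genes in DG was 16 without rats 2410 and 2722. For single rats, the release count higher in CA1 was 2 without rat 2728 or 2731 and 8 without rat 2410, and the release count higher in DG was 6 without rat 2731, and the scaffold count higher in DG was 2 without rat 2410. The release count higher in CA1 was 2, the release count in DG was 6 and the scaffold count in CA1 was 2 without rats 2526 and 2572. The release count higher in CA1 was 7 and the scaffold count in DG was 2 without rats 2410 and 2722.

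Adhesion and guidance molecules, which mark connections, were called often in both directions. Of 53 axon guidance genes, 21 were higher in DG and 11 in CA1. Nrp2, a semaphorin receptor, lay between 638 and 1611 normalized reads in CA1 (median 1038) and between 1806 and 2609 in DG (median 2402). Plxnd1, also a semaphorin receptor, lay between 801 and 1193 (median 974) against 197 to 723 (median 327). The fields were apart in both and the signs opposite, at -1.17 (SE 0.16, limma adjusted p = 0.000321) and 1.52 (SE 0.20, limma adjusted p = 0.000321). The netrin receptor Unc5d (-1.16, limma adjusted p = 7.14e-05), the repellent Slit2 (-1.17, limma adjusted p = 0.00366, 7 of 8 rats) and the Eph receptor Epha8 (-1.16, limma adjusted p = 0.000140) were higher in DG, and Ephb6 (0.92, limma adjusted p = 0.00277) and Ephb3 (0.94, limma adjusted p = 0.00308) in CA1. Of 53 synaptic adhesion genes, 11 were higher in CA1 and 9 in DG. Adgrl2, a latrophilin of CA1 synapses, lay between 1176 and 1753 in CA1 and between 68.6 and 933 in DG without overlap (2.93, SE 0.39, limma adjusted p = 0.000884). On the DG side were Flrt3, a ligand of latrophilins and of Unc5 receptors (-1.08, limma adjusted p = 0.000160), and the classical cadherin genes Cdh9 (-1.34, limma adjusted p = 0.00223, 7 of 8 rats) and Cdh12 (-0.94, limma adjusted p = 0.000443), and on the CA1 side Cdh10 (0.75, limma adjusted p = 0.000784) and Cdh18 (0.99, limma adjusted p = 0.00213). For single rats, the guidance count higher in CA1 was 7 without rat 2523, 2571 or 2572, and the guidance count higher in DG was 13 without rat 2731, and the adhesion count higher in CA1 was 6 without rat 2526, 2571, 2728 or 2731 and 7 without rat 2572 or 2722. The guidance count higher in CA1 was 5 and the adhesion count in CA1 was 4 without rats 2526 and 2572.

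Neuropeptide genes were called in both directions. Of 24 neuropeptide and granin genes, 10 were called higher in CA1 and 4 in DG, and 10 were not called. The summed level of the list was not higher in CA1, with medians of 35847 normalized reads in CA1 and 41123 in DG. Cck, cholecystokinin, lay between 2340.4 and 4485 normalized reads in CA1 (median 2937) and between 742 and 1687 in DG (median 961). Vip lay between 224 and 379 (median 309.7) against 64.7 to 206 (median 94.5), and Tac3, the precursor of neurokinin B, between 307 and 427 (median 372) against 114 to 245 (median 169). All 3 were apart and higher in CA1 in 8 of 8 rats, with log2 differences of 1.59 (SE 0.11, limma adjusted p = 3.89e-06), 1.64 (SE 0.15, limma adjusted p = 3.66e-05) and 1.17 (SE 0.15, limma adjusted p = 0.000262). Tac3 encodes the ligand of Tacr3, described above. Nts, neurotensin, had a larger mean difference than any gene named above, 4.23 (SE 0.99, limma adjusted p = 0.0248, 7 of 8 rats), but its DG libraries lay between 2.18 and 1368 against 902 to 1825 in CA1. The ranges overlapped. Leaving out 1 rat ended the call of Nts (without rat 2523, 2526, 2571, 2728 or 2731), and the neuropeptide count higher in CA1 was 6 without rat 2571 or 2731. The call of Nts ended without rats 2526 and 2572.

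In DG the opioid precursor Pdyn, which mossy fibres release as dynorphin, lay between 3063 and 4033 normalized reads (median 3734), against 752 to 2079 in CA1 (median 1579). It was apart between the fields and higher in DG in 8 of 8 rats (-1.26, SE 0.14, limma adjusted p = 0.000111). Penk, the enkephalin precursor, was at -0.71 (limma adjusted p = 0.00106) and Nmb, neuromedin B, at -1.19 (limma adjusted p = 0.00142). Bdnf and Ntf3, both neurotrophins, were also higher in DG. Bdnf, made by granule cells and carried in mossy fibres, lay between 350.1 and 674 in CA1 (median 499) and between 699 and 1350.4 in DG (median 1219.6), apart between the fields (-1.08, SE 0.15, limma adjusted p = 0.000341). Ntf3, neurotrophin 3, was at -0.97 (SE 0.18, limma adjusted p = 0.00323) and its receptor Ntrk3 at -0.46 (limma adjusted p = 0.00285). Of 19 genes in the list of trophic factors, 4 were called higher in DG and 1 in CA1, while 14 were not called. Over the list the differences leaned the other way, with 13 above 0 and a median of 0.16. In fits that left out 1 rat, the trophic factor count higher in CA1 was 2 without rat 2523 or 2728, 3 without rat 2526 and 4 without rat 2410. The trophic factor count higher in CA1 was 3 without rats 2526 and 2572. The trophic factor count higher in CA1 was 3 without rats 2410 and 2722.

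Genes of some other cell classes differed beside those of the principal cells. Of 22 interneuron genes, 12 were called higher in CA1 and 2 in DG, with a median log2 difference of 0.51; Cck and Vip belong to this list too. Dlx1, a transcription factor of GABAergic neurons, lay between 206 and 281 normalized reads in CA1 (median 269.8) and between 115 and 192 in DG (median 126), without overlap (0.96, SE 0.11, limma adjusted p = 0.000131). Nxph1, a ligand of neurexins, was apart as well (0.89, limma adjusted p = 0.000826), and Pvalb, Sst and the vesicular transporter gene Slc32a1 were called with overlap, at 0.94 (limma adjusted p = 0.0114, 7 of 8 rats), 0.49 (limma adjusted p = 0.00689) and 0.44 (limma adjusted p = 0.0161, 7 of 8 rats). Gad1, which makes GABA, did not pass (0.19, limma adjusted p = 0.292, 6 of 8 rats), and Lamp5 was higher in DG (-0.98, limma adjusted p = 0.00293, 7 of 8 rats). Fits with 1 rat less lost the call of Slc32a1 (without rat 2571, 2572 or 2728), and the interneuron count higher in DG was 1 without rat 2410, 2523, 2526, 2722, 2728 or 2731. The call of Slc32a1 ended without rats 2526 and 2572. The interneuron count higher in DG was 1 without rats 2526 and 2572. The interneuron count higher in DG was 1 without rats 2410 and 2722.

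Myelin genes were higher in CA1 almost throughout the list. Of 17 oligodendrocyte genes, 16 were called higher in CA1 and none in DG, with a median log2 difference of 0.85. Mbp, myelin basic protein, lay between 56368 and 131217 normalized reads in CA1 (median 82643) and between 26257 and 82617 in DG (median 46421). Mog, a protein of the outer myelin surface, lay between 974 and 1636 (median 1309) against 417 to 1153 (median 606). The fields overlapped in both genes, since rat 2410 had more in DG, and the differences were 0.92 (SE 0.20, limma adjusted p = 0.00714, 7 of 8 rats) and 1.03 (SE 0.18, limma adjusted p = 0.00249, 7 of 8 rats). Opalin, a protein of the myelin paranode, had the largest difference of the list (1.14, limma adjusted p = 0.00768, 7 of 8 rats), and Aspa, which breaks down N-acetylaspartate, was the member without overlap (0.85, limma adjusted p = 0.00279). Without rats 2526 and 2572 the median was 0.73, but 6 genes were called. Without 2410 and 2722 it was 1.15, with 17 called. The calls of Mbp and Opalin ended without rats 2526 and 2572.

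Ependymal genes, at low levels, followed. Of 5 tested, 4 were called higher in CA1. Tmem212, a gene of ciliated cells, lay between 8.37 and 27.3 normalized reads in CA1 and between 0 and 21.3 in DG (3.20, SE 0.52, limma adjusted p = 0.00139), and Ak7, an adenylate kinase of cilia, between 18.1 and 54.2 and between 0 and 55.2 (2.93, SE 0.54, limma adjusted p = 0.00296, 7 of 8 rats). The ranges overlapped in both, since the DG libraries of rats 2523 and 2572 reached the range of CA1. Of 18 astrocyte genes 2 were called, and of 15 microglial genes 3, all higher in CA1, among them Aif1, a cytoskeletal protein of microglia (0.65, limma adjusted p = 0.00121). Of all tested genes 12.2% were called, and 6.25% were called higher in CA1. Astrocyte genes were thus called about as often as all tested genes. None of 13 endothelial and 8 mural genes was called with all 8 rats. Without rats 2410, 2526, 2572 and 2722, chosen after seeing the data, 7 and 4 of them were called higher in CA1. Without 2526 and 2572 alone the endothelial count was 0. The cause was not tested. For single rats, the astrocyte count higher in CA1 was 0 without rat 2571, 2572, 2728 or 2731 and 1 without rat 2523 or 2722, and the microglia count higher in CA1 was 5 without rat 2526, and the endothelial count higher in CA1 was 3 without rat 2410. The astrocyte count higher in CA1 was 0 without rats 2526 and 2572. The astrocyte count higher in CA1 was 4 and the endothelial count in CA1 was 2 without rats 2410 and 2722.

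Markers of neighbouring fields were uneven. Rgs14, a signalling regulator known from CA2, lay between 2912 and 4315 normalized reads in CA1 and between 1252 and 2019 in DG without overlap (1.27, SE 0.11, limma adjusted p = 1.92e-05), while Pcp4, another CA2 marker that granule cells also express, was higher in DG (-0.51, limma adjusted p = 0.00178). Of 5 mossy cell markers, Nmb was higher in DG and Drd2 in CA1 (1.57, limma adjusted p = 0.0142), and the other 3 did not pass. Grik4, given above as higher in DG, also belongs to the list of CA3 markers. Nts, given above as higher in CA1, also belongs to that of the subiculum. The median log2 differences over the 3 tested markers of each list were -0.65 for CA3 and 1.14 for the subiculum. Of 13 genes of neural stem cells and new neurons, 2 were called higher in DG (Nhlh1 and Bhlhe22). Dcx, doublecortin of immature neurons, lay between 69.2 and 298 in CA1 and between 211 and 391 in DG and did not pass (-0.43, limma adjusted p = 0.218, 6 of 8 rats). The DG count was 1 without rat 2523, 2571, 2572, 2722, 2728 or 2731. The call of Drd2 ended without rats 2526 and 2572. The stem cell and new neuron count higher in DG was 1 without rats 2526 and 2572.

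Nuclear genes of energy supply and genes of protein synthesis were seldom called. Of 81 nuclear genes of oxidative phosphorylation, 3 were called, all higher in CA1, and of 74 ribosomal protein genes 1, shares below those of all tested genes. Ribosomal protein genes have many processed copies, so reads of a single member are uncertain. Transcripts of the mitochondrial genome were called higher in CA1 in 6 of 11 genes, with a median log2 difference of 0.43. Without rats 2526 and 2572, which include the highest library for these transcripts, the median was 0.38 and 2 were called, and without 2410 and 2722 as well the median was 0.33 and 0 were called. These calls also depended on the pairing by rat: without the block 1 of the 11 was called. Of the other lists, the oxidative phosphorylation count higher in CA1 was 7 without rat 2526, and the ribosomal protein count higher in CA1 was 2 without rat 2523 and 6 without rat 2526, and the ribosomal protein count higher in DG was 2 without rat 2523. The ribosomal protein count higher in CA1 was 2 without rats 2526 and 2572.

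The differences were then followed in rats that had not been used to find them. In the 6 aged rats, 893 of the 916 genes called higher in CA1 and 872 of the 877 called higher in DG kept their direction on average. In the 8 young rats given LPS, 884 and 844 did. Fewer kept it in every rat of a group, 563 and 599 among the aged rats and 477 and 354 among the LPS rats. In young saline rats 1051 of the 1793 called genes had the same sign in 8 of 8 rats. How many of all tested genes kept their direction in the aged and LPS rats was not worked out, so the counts stand without a baseline. Each of the 20 genes with the largest differences kept its mean direction in both groups. Of the 10 toward CA1 and the 10 toward DG, 10 and 8 did so in every aged rat, and 9 and 5 in every LPS rat. Met had a mean difference of 3.98 ± 1.66 (SD, n = 8) in young saline rats, 3.90 ± 1.02 (SD, n = 6) in aged rats and 4.43 ± 1.17 (SD, n = 8) with LPS. For Wfs1 the values were 3.14 ± 1.76, 1.93 ± 1.61 and 3.11 ± 1.49, and for Svep1 -1.71 ± 0.52, -2.03 ± 0.66 and -2.13 ± 1.40. In these 3 genes the means of the other groups lay within 1 SD of the young saline mean.

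**Figure D5:**
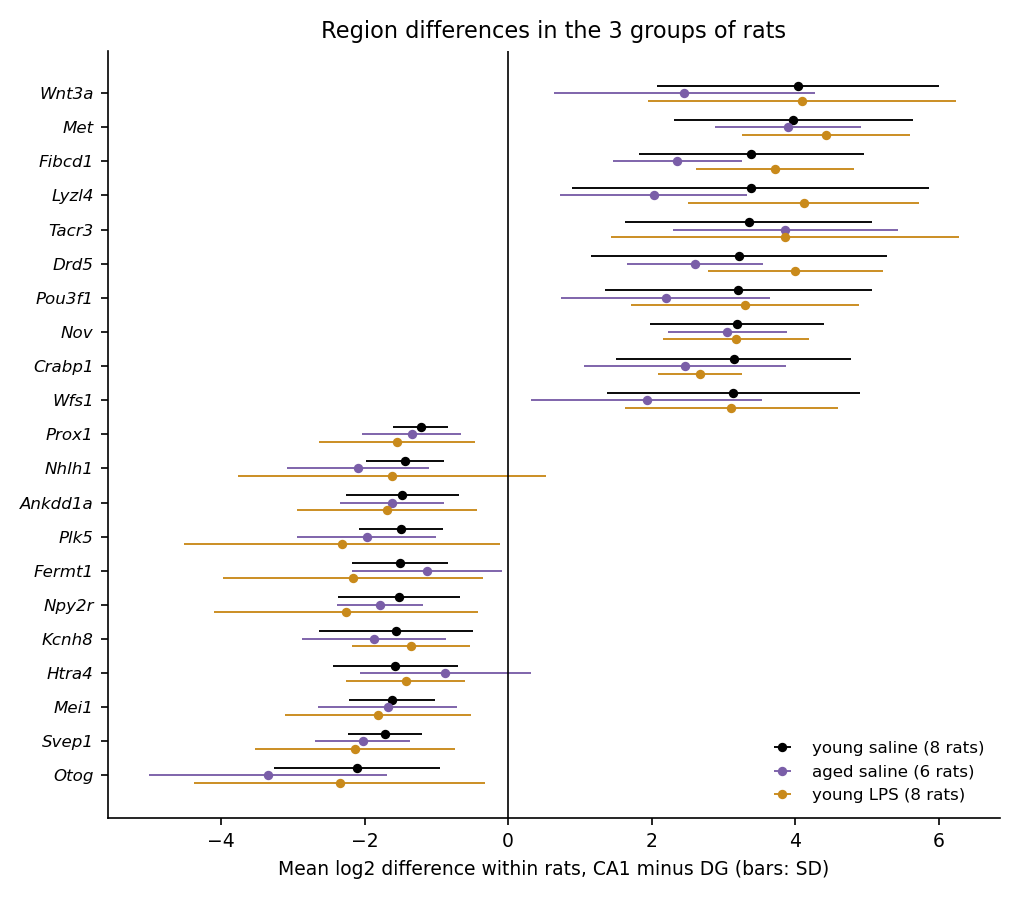
Mean log2 difference within rats, CA1 minus DG, with its SD, for the markers and the 10 largest differences in each direction, in young saline, aged saline and young LPS rats. All means lie on the same side of 0 in the 3 groups.

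Whether the region difference itself differed was tested on the within-rat differences with limma. Between aged and young saline rats no gene passed (0 of 14657, 0.0%; 742, or 5.06%, had an unadjusted p below 0.05, and the smallest adjusted p was 0.746). Between LPS and saline rats 1 gene passed (0.00682%), with 1858 (12.7%) at an unadjusted p below 0.05. It was Zfp300, a zinc finger gene at 16.2 to 41.0 (median 23.6) normalized reads in CA1 and 9.95 to 37.7 (median 18.2) in DG of young saline rats. Its mean difference was 0.43 ± 0.48 (SD, n = 8) in saline rats and -1.37 ± 0.52 (SD, n = 8) in LPS rats, which differed by -1.80 (SE 0.29, limma adjusted p = 0.0357). Leaving out 1 rat of either group left no gene called except without rat 2523 or 2717 (1 gene each) and without 2403 (2 genes).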

How the data were processed

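Polyadenylated RNA of CA1 and DG was sequenced in 44 libraries, of which 16 enter the main comparison. Per the submitters' processing notes, which name STAR, Partek, DESeq2 and the rat build rn6 without versions, the authors mapped and normalized the reads; what role each tool had is not given in the sources used here. The deposited values are a signal, reads per gene divided by a factor for each library, in 1 table per field, and the fields had been normalized separately. At least 99.6% of the values above 0 of each library were whole multiples (within 0.1) of the worth of 1 read, between 0.715 and 1.32, and these reads were recovered.

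The 19882 genes in both tables were joined, the 16 columns rescaled together by TMM, and the 14657 genes that reached 10 in 6 or more of the libraries were kept. Differences were fitted on log2(value + 1) with limma 3.58.1 (R 4.3.3; trended, robust variances; rat as block), with Benjamini-Hochberg adjustment over all 14657 genes and a threshold of 0.05 (the pseudocount of 1 shrinks the differences of genes with few reads). The region difference was compared between groups of rats by limma on the within-rat differences. edgeR 4.0.16 and DESeq2 1.42.0 on the recovered reads, other scalings, filters, pseudocounts, library weights, a fit without the block and fits without rats were alternatives. The fits were tested on simulated data.

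The pairing comes from the animal numbers in the titles. As a check, the correlation of a rat's CA1 and DG deviations from the group means had a median of 0.087 over 8 rats (-0.24 to 0.27) and exceeded 0.1 in 3. A rat's own DG library correlated best with its CA1 library in 1 of 8 rats. The expression values alone thus do not show the pairing, which rests on the titles. No pair of libraries of a field agreed within counting noise. Genes are named where they mark a field, where they are among the 10 largest differences in each direction (same sign in 8 of 8 rats, median of at least 50 in the higher field), where they are among the largest called of a gene list, or as members of such a list. The comparison and the lists were chosen with earlier results of these data known, so their directions are no independent support. Promoters are from RefSeq (GRCr8), a build other than the authors', and the first entry of a repeated symbol was used. Genes without a row in both tables were not analysed here, and some tested genes are not reported here.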

Additional observations from a re-analysis of the deposited data

Results flagged for a closer look

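Over the genes given with their ranges, 128 groups of 8 libraries of a field were checked for a library far from the others, and 14 held one. The rule would mark about 1 in 20 groups of independent, normally distributed values. Normalized reads were used without logs and the genes share libraries, so the count is not compared with chance. In 8 of the 14 the far library was one of rat 2410. Its DG library was highest in genes that were higher in CA1, with 1368 normalized reads of Nts (next 540.9), 63.4 of Tacr3 (next 11.9), 48.0 of Drd5 (next 16.5), 206 of Vip (next 109), 192 of Dlx1 (next 135), 2096 of Pex5l (next 1146) and 1153 of Mog (next 747). Its CA1 library was the highest in Gabra5, at 2851 (next 2027). The DG library of rat 2523 was far above the others in the ciliary genes Ak7, at 55.2 (next 25.7), and Tmem212, at 21.3 (next 8.55). In the DG library of rat 2526, Arc stood at 2063 (next 1297) and Nhlh1 at 913 (next 529.5). The CA1 library of rat 2728 was the highest in Adcy1, at 9585 (next 7136), and in Grm2, at 1213 (next 852), both genes higher in DG. Causes were not tested.

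The region difference of Zfp300 differed between LPS and saline rats by -1.80 in the test on within-rat differences (limma adjusted p = 0.0357). Its 8 saline rats lay between -0.31 and 1.10 and the LPS rats had a mean of -1.37. Over 21 fits, the reported one included, the difference between the groups lay between -1.92 and -1.44. The call of Zfp300 was lost in 15 of these fits (limma adjusted p of up to 0.308).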

How the results depend on the processing

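The called genes named here kept their direction in all alternatives, and scaling moved the median difference of all tested genes by less than 0.1 on the log2 scale (-0.048 as deposited, 0.0043 in the fit reported). The counts of called genes, 916 higher in CA1 and 877 in DG, were 1014 and 985 without the replicate block, that is, ignoring the pairing by rat, 866 and 854 with edgeR and 1173 and 1164 with DESeq2. They were 1989 and 1842 with library weights, which also gave 391 genes higher in CA1 by at least 1 in place of 258. A filter on a mean of at least 50 gave 148 such genes, from fewer genes tested. Without rats 2526 and 2572, 592 genes were called higher in CA1. Leaving out rats 2410 and 2722, or these 4 rats, chosen after seeing the data, gave 398 and 467 genes higher in CA1 by at least 1. With single rats left out, 562 to 1193 genes were called in CA1 and 558 to 1007 in DG (both lowest without rat 2731), and 190 to 372 and 112 to 178 with a size of at least 1. The cause was not tested. Without these 4 rats, lists with 3 or more calls that fell by over 1.5 times were forebrain transcription factors in DG (6 in place of 11), and in CA1 mitochondrial transcripts (0 in place of 6), cAMP genes (3 in place of 5), ependymal genes (2 in place of 4), scaffolds (2 in place of 4) and calcium-binding proteins (1 in place of 3). Those that rose were release genes (7 in place of 4) and microglial genes (6 in place of 3) in CA1 and calcium channels in DG (5 in place of 3). The aged test called 0 genes in each alternative and the LPS test 0 to 2 without single rats, and 0 with a pseudocount of 5, with a mean of at least 50 and without the replicate block, as against 1. Of single genes, the call of Gabrr3 ended with edgeR, library weights and a pseudocount of 0.25, that of Gabra2 with no filter, and those of Npas4 and Fkbp5 without the block. Genes that did not pass changed sign: with single rats left out, Calb1 took values of -0.22 to 0.094, Gabra5 -0.19 to 0.042, Gria1 -0.051 to 0.022 and Grm5 -0.15 to 0.051. Gabra5 was also at 0.0027 with library weights and 0.11 without rats 2526 and 2572, and Grm5 at 0.049 without 2410 and 2722.

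With 8 rats the median SE of a called difference was 0.13 and the smallest called size was 0.23. Values at a few reads, such as those of Gabrr3, Otog and Tmem212, rest on little depth. Both fields of a rat came from the same dissection, and the tissue content of a library cannot be told apart from expression per cell.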

Other observations

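Zinc handling and corticosteroid genes were called about as often as all tested genes (12.2%). Of 8 zinc handling genes, 1 was called, Slc30a3, the transporter that loads zinc into glutamatergic vesicles, which lay between 1731 and 3260.4 normalized reads in CA1 and between 3151 and 4869.5 in DG and was higher in DG (-0.57, SE 0.13, limma adjusted p = 0.0105, 7 of 8 rats). Of 7 corticosteroid genes, 1 was called, Fkbp5, a cochaperone of the glucocorticoid receptor, higher in DG (-0.39, limma adjusted p = 0.0320, 6 of 8 rats), while the mineralocorticoid receptor Nr3c2 did not pass (0.14, limma adjusted p = 0.318, 5 of 8 rats). Of 16 calcium-binding proteins, 3 were called higher in CA1 and 4 in DG. Necab1 was higher in DG (-1.01, limma adjusted p = 0.00119), and Calb1, calbindin, which both principal cell types make, lay between 485 and 1264 in CA1 and between 697 and 1213 in DG and did not pass (-0.08, limma adjusted p = 0.833, 4 of 8 rats). Of 11 auxiliary subunits of voltage-gated potassium channels, 4 were called, all higher in CA1, opposite to most called pore subunits. Kcnab1, a beta subunit, did not overlap between the fields (0.58, limma adjusted p = 0.000321), nor did Olig2, the transcription factor of the oligodendrocyte lineage (0.62, limma adjusted p = 0.00540), and Reln, the extracellular protein reelin, was higher in CA1 (0.52, limma adjusted p = 0.0106, 7 of 8 rats). Fits with 1 rat less ended the call of Fkbp5 (without rat 2526, 2571, 2572, 2722, 2728 or 2731), and the calcium-binding count higher in CA1 was 1 without rat 2572, 2722 or 2731, and the auxiliary subunit count higher in CA1 was 2 without rat 2722, 2728 or 2731. The calls of Fkbp5 and Reln ended without rats 2526 and 2572. The calcium-binding count higher in CA1 was 1 and the auxiliary subunit count in CA1 was 2 without rats 2526 and 2572. The calcium-binding count higher in CA1 was 1 without rats 2410 and 2722.

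Of 10 sodium channel genes 2 were called higher in CA1 and 1 in DG, and of 10 genes of the neuronal extracellular matrix none; the sodium channel count higher in CA1 was 1 without rat 2523, 2526, 2571, 2572, 2722, 2728 or 2731, and the matrix count higher in CA1 was 2 without rat 2410 or 2523. Over the oligodendrocyte genes, the median log2 difference was 0.66 in aged rats and 1.11 in LPS rats, against 0.85 in young saline rats. Over the granule markers these medians were -1.08, -1.40 and -0.92. Differences between these medians were not tested. The sodium channel count higher in CA1 was 1 without rats 2526 and 2572. The matrix count higher in CA1 was 2 without rats 2410 and 2722.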
